A study of Canis lupus familiaris with 10 samples.

Results

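Regions of accessible chromatin that were called in every control library of the canine B-cell lymphoma line 17-71, that had no call after treatment with the PRMT5 inhibitor C220, and that were also called in another canine B-cell lymphoma line, CLBL-1, numbered 1440 of 59420 merged regions. They are called shared lost regions here. Peaks that touched or overlapped were merged over all 10 libraries, and a shared lost region had a peak in control libraries B1, B2 and B3 of 17-71, in neither C220 library of that line (B4 and B6), and in at least 1 of the 5 libraries of CLBL-1. The regions were therefore chosen by the calls themselves, and the loss of the call in 17-71 is a description with no test. In all, 3380 regions (5.69% of all merged regions) were lost in 17-71 in this sense, of which the 1440 called in CLBL-1 made up 42.6% (95% Wilson interval 40.9 to 44.3%, counting error only). The other 1940 had no call in any CLBL-1 library.

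The series holds ATAC-seq peak lists from these lines, each grown with or without 100 nM of C220, which the sample labels name PR220. 17-71 was collected on day 4, with 3 control libraries (B1, B2 and B3) and 2 C220 libraries (B4 and B6). CLBL-1 was collected on day 2, with 2 control libraries (C2 and C3) and 3 C220 libraries (C4, C5 and C6). Both lines carry the source label lymph node, each group comes from a single established cell line, and because their days differ, the treatment was compared only within a line. The labels do not say whether libraries came from separate cultures, so each p-value measures the spread between these libraries, which may be technical. The study speaks of biological replicate experiments and of outlier samples removed by their correlation with the others, and the effect of that removal on the spread was not tested.

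ATAC-seq uses a transposase that cuts and tags DNA where it is not wrapped in nucleosomes, and stretches dense in tagged fragments, called as peaks, mark accessible chromatin at promoters, enhancers and other regulatory elements. PRMT5 is the main enzyme that places symmetric di-methylation on arginine, on histones such as H4 and H3 and on many other proteins, among them parts of the splicing machinery. The histone marks it writes are mostly known from silenced genes, so the question behind the treatment was whether blocking the enzyme changes which chromatin is open. Each deposited peak carries a fold enrichment over local background and a −log10 p from the authors' peak caller, and no peak in the lists was weaker than a −log10 p of 5. A region without a call may still be accessible at a level under that limit, and fewer cells with an open site cannot be told apart from less opening per cell.

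The libraries did not hold lists of the same length, and this bears on every count of lost regions. The 17-71 controls held 44378 (B1), 33358 (B2) and 30943 (B3) peaks, covering 46.3, 36.6 and 35.8 Mb. The C220 libraries held 22076 (B4) and 27646 (B6) peaks, covering 18.8 and 28.2 Mb. All 3 controls thus had longer lists than both C220 libraries, and leaving out B6 changed the number of regions most. Without B6 the rule took in 3593 regions, without B4 1910, without B3 2287, without B2 2081 and without B1 1510. Read depth is not part of the peak lists, and its part in the loss was not tested.

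The shared lost regions had weak peaks in the 17-71 controls. The weakest of a region's 3 control peaks had a median −log10 p of 5.99, with quartiles of 5.43 and 7.04 and a highest value of 17.0. It was at least 10 in 49 regions (3.40%). Among the 11102 regions that were called in all 5 libraries of 17-71 and in CLBL-1, called kept regions here, the median was 15.2 and 74.1% were at 10 or above. The 2625 regions that kept the call in exactly 1 of the 2 C220 libraries and were called in CLBL-1 lay between, with a median of 7.27 and 20.5% at 10 or above. Most of the shared lost regions therefore stood close to the limit of calling already in the untreated cells. Placed in each library's own list, where the percentile 0 is its weakest peak and 100 its strongest, the median shared lost region stood at 42.5 in B1, 27.3 in B2 and 26.2 in B3, while the median kept region stood at 82.4, 75.8 and 74.6.

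At the edge of the rule, the control and C220 values met. The shared lost regions with the smallest control value were on chromosome 10 from 58432526 to 58433377 (B1 9.37, B2 5.85 and B3 5.00 on the −log10 p scale), on chromosome 22 from 6295561 to 6296945 (6.73, 5.00 and 5.60) and on chromosome 34 from 11572052 to 11574505 (6.12, 5.00 and 5.78). The regions that missed the rule most narrowly had a C220 peak at the limit. On chromosome 6 from 56473762 to 56476787 the controls were at 12.1, 6.23 and 6.83 and B4 at 5.00, on chromosome 10 from 25864957 to 25865808 they were at 9.59, 8.04 and 7.25 with B4 at 5.00, and on chromosome 32 from 17943509 to 17944502 they were at 7.98, 6.91 and 6.49 with B4 at 5.01. A control peak just above the limit was enough to enter the set, and a C220 peak just above it was enough to stay out.

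Which regions were in the set depended on that limit. When a peak had to reach a −log10 p of 10 to count, 1143 regions met the same rule, but 24 of them (2.10%) overlapped one of the 1440 regions, which is 1.67% of the 1440. With the −log10 of the q-value at 5 or more, 1368 regions met the rule and 259 of them (18.9%) overlapped. With the 20000 strongest peaks of every library, which gives lists of equal length, 277 met the rule and 89 of them (32.1%) overlapped. Counting a library only where its peaks reached 50% of the region's median peak width gave 1583 regions, of which 1247 overlapped. Under all 4 of these settings together 16 of the 1440 remained. In a list of equal length most of the 1440 had no part, because their control peaks lay low. All 3 control peaks were within the strongest 22076 of their list, the length of B4, in 200 of the 1440 regions (13.9%), against 88.7% of kept regions. They were within the strongest 27646, the length of B6, in 591 (41.0%).

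The share of regions lost with C220 was lower among regions called in CLBL-1 than among those not called there, over all strengths together. It was lower by a smaller number of percentage points in 6 of 6 classes of strength. These shares are over regions, which are not replicates, and their intervals cover counting error only. The difference between the kinds was not tested. Of the 15167 regions called in all 3 controls of 17-71 and in CLBL-1, 9.49% were lost with C220. Of the 11531 called in all 3 controls and in no CLBL-1 library, 16.8% were lost. The regions were then divided by their weakest control peak. At a −log10 p from 5 to 6, 39.4% of regions called in CLBL-1 (724 of 1836, 95% Wilson interval 37.2 to 41.7%) and 43.5% of those not called there (1078 of 2478, 41.6 to 45.5%) were lost. From 6 to 7 the shares were 25.3% (23.0 to 27.6%) and 26.0% (23.9 to 28.1%), and from 7 to 8 they were 15% (13.1 to 17.1%) and 16.7% (14.8 to 18.9%). From 8 to 10 they were 7.15% (6.08 to 8.38%) and 8.63% (7.42 to 10.0%). From 10 to 15 they had dropped to 1.49% (46 of 3085, 1.12 to 1.98%) and 1.94% (42 of 2169, 1.44 to 2.61%). At 15 or above they were 0.0524% (3 of 5726, 0.0178 to 0.154%) and 0.192% (4 of 2082, 0.0747 to 0.493%). Within either kind of region the share lost thus fell by far more across the classes of strength than it differed between the kinds. How much of the overall gap between the kinds remains at equal strength was not computed.

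**Figure D1:**
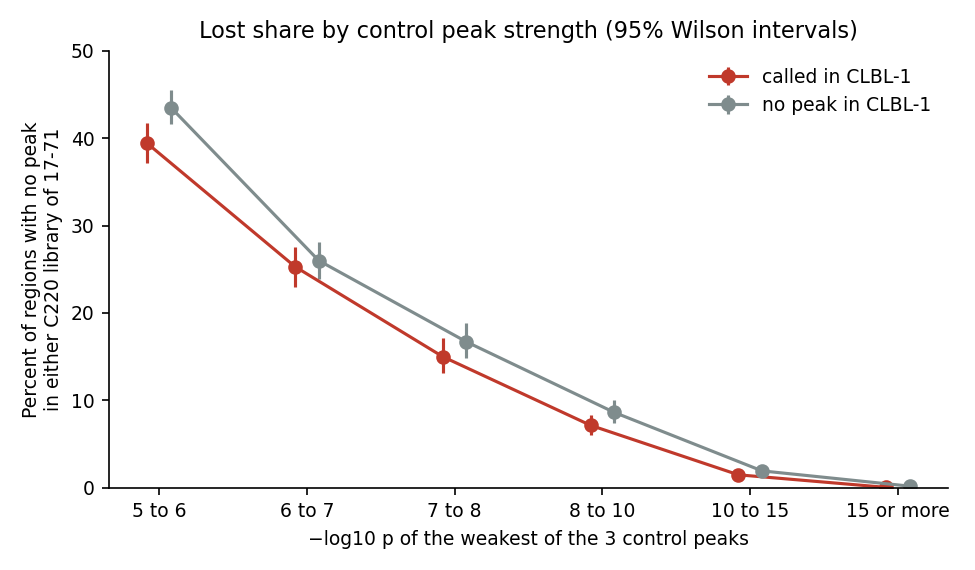
Percent of regions called in all 3 controls of 17-71 that had no call in either C220 library (vertical axis), by the −log10 p of the weakest control peak (horizontal axis), for regions called in CLBL-1 and for regions absent there, where bars are 95% Wilson intervals. In both kinds the share lost falls from 39.4% and 43.5% at the limit of calling to 1.49% and 1.94% between 10 and 15.

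The median width of the shared lost regions was 1367.5 bp (quartiles 1032.75 and 2023.75, from 444 to 5363 bp), against 1078 bp over all merged regions, 1032 bp for lost regions absent in CLBL-1 and 1622.5 bp for kept regions. The merging takes in CLBL-1 peaks as well, and the width rose with the number of CLBL-1 libraries that called a region, from a median of 1107 bp with 1 library to 1582 bp with 5. The calls of the lines fell on the same bases in nearly every region. In 1437 regions some bases lay under a peak of all 3 controls (a median of 641 bp), and a CLBL-1 peak reached those bases in 1423 regions (98.8%). A CLBL-1 peak covered them whole in 855. In 17 regions no CLBL-1 peak reached such bases, and no region was joined to CLBL-1 by merging alone. Several peaks of the same library fell in 45 regions (3.12%).

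In CLBL-1, the share of the shared lost regions called in every library was somewhat under that of all regions called there. All 5 libraries called 727 of the 1440 (50.5%, against 56.5% of the 32440 regions called in CLBL-1), 4 libraries called 168 (11.7%), 3 called 174 (12.1%), 2 called 167 (11.6%) and 1 called 204 (14.2%). Kept regions were called in all 5 in 82.7% of cases and regions with 1 C220 call in 17-71 in 60%. A call in only 1 CLBL-1 library was found in 4.79% of kept regions and in 10.5% of regions with 1 C220 call. Over all regions called in CLBL-1, the shares for 1 to 4 libraries and for each single library were not computed. The median weakest control peak lay between 5.86 and 6.06 for each number of CLBL-1 libraries, within a set whose control peaks were weak by selection. Among regions called in a single CLBL-1 library, that library was C5 in 62, C4 in 54, C2 in 37, C3 in 26 and C6 in 25. C5 and C4 also had the longest CLBL-1 lists, with 27247 and 27026 peaks, against 23822 in C2, 23318 in C3 and 23082 in C6.

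Among regions of like strength in the 17-71 controls, the share called in all CLBL-1 libraries was lower for the shared lost regions than for kept regions in each class given here. With a weakest control peak from 5 to 6, the share called in all 5 was 49.4% of shared lost regions, 50.7% of regions with 1 C220 call and 65.2% of kept regions. From 6 to 7 it was 50.7%, 61.3% and 66.4%, and from 8 to 10 it was 54.3%, 62.9% and 75.7%. From 10 to 15 it was 43.5% (46 regions), 66.9% and 80.3%. The share among kept regions thus climbed with the strength in 17-71, while among shared lost regions it ranged from 43.5% to 54.3%. These shares are over regions, which are not replicates, and they are given without a test.

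The peaks of the shared lost regions ranked low in CLBL-1 too. The median percentile in a library's own list was 36.6 in C2, 36.7 in C3, 39.8 in C4, 38.8 in C5 and 36.3 in C6, while kept regions had 71.8, 71.4, 74.0, 74.3 and 71.6. Regions with 1 C220 call in 17-71 also ranked low, at 42.4, 42.7, 45.4, 45.7 and 42.5. Shared lost minus kept regions, the difference of the medians was -35.0 points on average and lay between -35.5 (C5) and -34.2 (C4). The shared lost regions were thus lower in 5 of 5 libraries, by nearly equal amounts in controls and C220 libraries. An exact sign-flip permutation test over the 5 libraries gave a two-sided p = 0.063, the smallest that 5 libraries allow. Both sets were fixed by their calls in 17-71, and the same regions were ranked in every library of the same line. No support is therefore read from this p-value. When both sets were limited to regions with a weakest control peak from 5 to 7, a comparison added after the data had been seen, the difference was -18.4 points. The same limit holds for its p-value (exact sign-flip permutation test, p = 0.063). A smaller gap of the same sign therefore remained among regions of like strength in 17-71. In CLBL-1 the spread was wider than in 17-71, with quartiles of 17.9 and 55.5 in C2 and of 21.0 and 58.7 in C5, and 63.9% (C4) to 68.0% (C3) of the called regions lay in the lower part of the list, under its median, where the 17-71 controls had 65.7% (B1), 87.0% (B2) and 88.3% (B3).

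**Figure D2:**
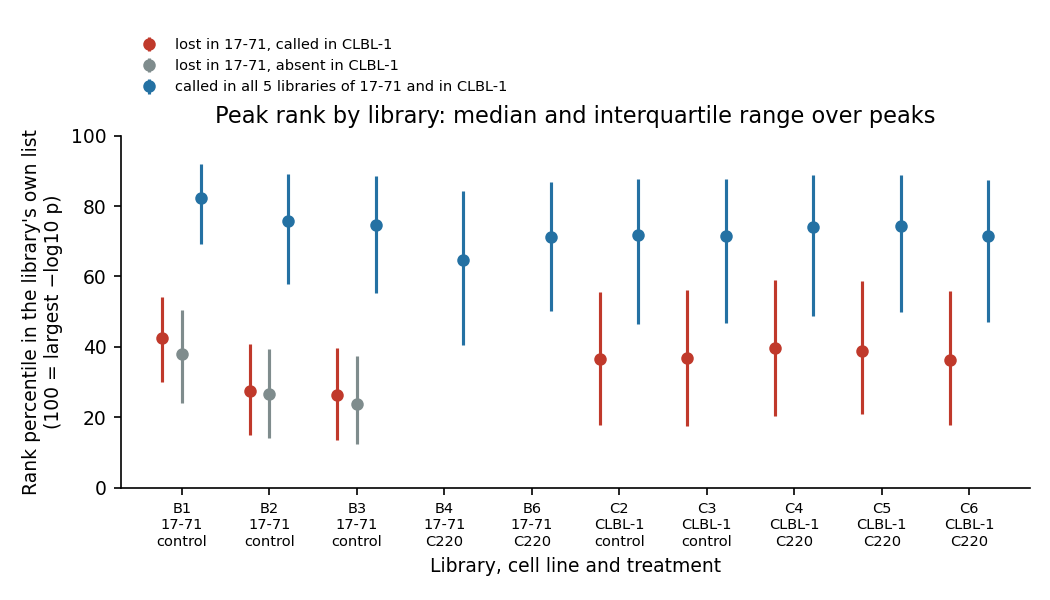
Rank percentile of the peak in its own library's list (0 weakest, 100 strongest, median and quartiles) in each library that called the regions. The sets are shared lost regions, regions lost in 17-71 and absent in CLBL-1, and kept regions. The shared lost regions have medians of 26.2 to 42.5 in the 17-71 controls and of 36.3 to 39.8 in CLBL-1, under the kept regions in every library.

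The median fold enrichments of the shared lost regions overlapped between the lines. The median fold of a shared lost region over local background was 3.99 in B1, 3.22 in B2 and 3.30 in B3, and 4.11, 3.76, 3.85, 3.62 and 4.09 in C2 to C6. In −log10 p the medians were 9.33, 6.82 and 6.70 in the 17-71 controls and 8.15 to 9.30 in CLBL-1. Values of fold and −log10 p were not scaled between libraries by the peak caller, so they are set side by side and not tested. Between the lost regions that were called in CLBL-1 and those that were not, the rank in the 17-71 controls differed little. The median percentile of the absent regions was 38.1 in B1, 26.5 in B2 and 23.7 in B3. The shared regions were higher by 4.38, 0.836 and 2.48 points, a mean of 2.56. Both sets were chosen by their calls in these same controls. An exact sign-flip permutation test over 3 libraries cannot go under p = 0.25, so no test is read from this difference. The mean difference was 4.58 points with the minimum of peak width, and turned to -0.229 in lists of 20000 peaks.

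The number of these regions called in CLBL-1 was on average higher with C220 than in control, but the groups overlapped and the exact test did not separate them. The rule asked for a call in at least 1 CLBL-1 library of either treatment, of which 3 had C220 and 2 were controls. The number called per library is the same when counted over all 3380 lost regions, which were chosen on 17-71 alone, so it was compared between treatments. The CLBL-1 controls called 1019 (C2) and 1002 (C3) of the 1440 regions, and the C220 libraries called 1166 (C4), 1180 (C5) and 1000 (C6). C4 and C5 were above both controls and C6 was just under them, so the groups overlapped. The control libraries averaged 1010.5 ± 12 regions (SD, n = 2) and those with C220 averaged 1115 ± 100.1 (SD, n = 3). The difference of 104.8 regions was larger than either SD, but the permutation test did not separate the groups (exact permutation test over 10 splits, two-sided, p = 0.4, where 0.1 is the smallest possible). The difference turned to -2.5 in lists of 20000 peaks, and was 184, 182 and 197 without B2, B3 or B6. The total number of regions called moved alike, with 23376 ± 301 in control and 25465 ± 2225 in C220 libraries. As a share of all regions a library called, the shared lost regions made up 4.32% in C2 and 4.33% in C3, and 4.37%, 4.40% and 4.37% in C4, C5 and C6. The difference of 0.0563 percentage points had the smallest p of the design (exact permutation test, p = 0.1), did not pass 0.05, and turned negative without B4 or B6 and under 4 other settings, with equal lists of 20000 peaks among them (-0.00966 points).

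**Figure D3:**
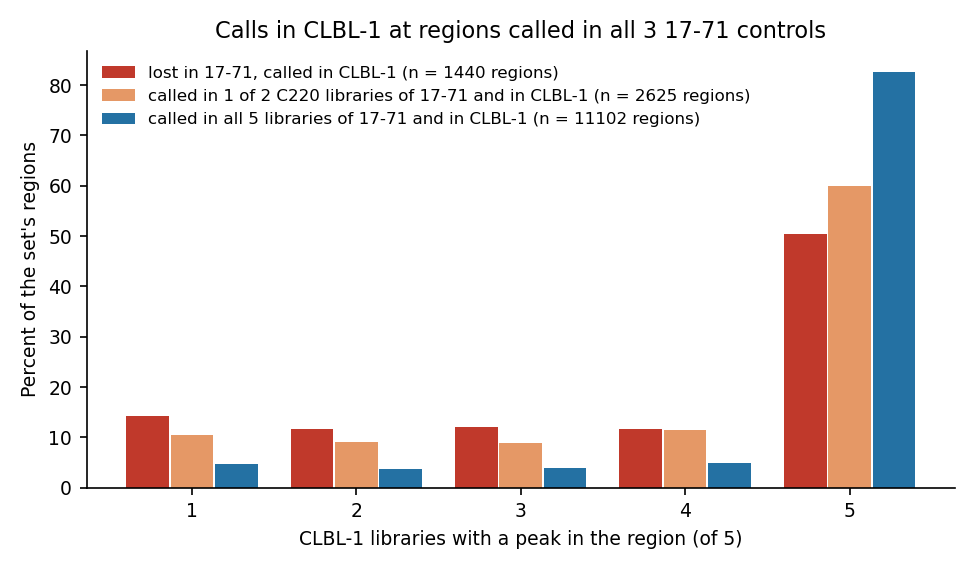
Percent of a set's regions (vertical axis) by the number of CLBL-1 libraries, of 5, with a peak in the region (horizontal axis). The sets are the 1440 shared lost regions, the 2625 regions with 1 C220 call in 17-71 and the 11102 kept regions. All 5 libraries called 50.5%, 60% and 82.7% of them.

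Because the rule used CLBL-1 calls, the pattern of calls per region is read only against all regions called in CLBL-1, which meet the same condition. Calls in control libraries alone were found in 72 of the 1440 regions (5.0%, against 5.01% of the 32440 regions called in CLBL-1), and calls in C220 libraries alone in 258 (17.9%, against 18.4%). Both shares were near the background. In 9 of the 1440 regions (0.625%) both CLBL-1 controls and no C220 library had a call, against 0.499% of the regions called in CLBL-1. The opposite pattern, a call in all 3 C220 libraries and in neither control, held in 36 regions (2.50%), against 1.71% over all regions called in CLBL-1. It held in 0.531% of kept regions and in 1.64% of those with 1 C220 call in 17-71. Among the 727 regions called in all 5 libraries, the peak ranked higher in every C220 library than in both controls in 144 (19.8%, against 18.2% of all 18339 regions called in all 5) and lower in 46 (6.33%, against 6.16%). The shares of ranks were near the background. The median rank change with C220 was 3.49 points in these 727 regions (quartiles -1.92 and 10.9), against 1.77 in all 18339 regions and 1.02 in kept regions. It moved with the length of the lists, and a longer list by construction raises the percentile of a peak that keeps its place from the top. Against the mean of the controls it was 5.73 points in C4 and 5.69 in C5, which had the longest CLBL-1 lists, and 0.0573 in C6, whose list was close in length to those of the controls, while over all 18339 regions it was 3.11, 3.34 and -0.167. No rank change with C220 is therefore read from these values.

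Single regions show what the selection took in. The strongest was on chromosome 5 from 6498689 to 6500489, with a −log10 p of 29.1 in B1, 17.0 in B2 and 18.4 in B3, no call in B4 and B6, and calls in C4 (8.37) and C5 (11) alone. The next, on chromosome 27 from 43002869 to 43005202, had 23.6, 16.8 and 27.1 in the controls and 9.51, 8.20, 13.4, 11.3 and 9.62 in C2 to C6. On chromosome 2 from 75251625 to 75252652, the controls were at 21.4, 16.5 and 32.3 and only C6 had a call in CLBL-1, at 5.66. These regions were well above the limit in all 3 controls and had no call in B4 or B6, and in CLBL-1 they ranged from 1 library at the limit to all 5.

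Of the 12 regions with the strongest weakest control peak, 6 were called in all 5 CLBL-1 libraries. That on chromosome 8 from 61382099 to 61383977 had 18.8, 17.2 and 14.5 in the controls and 8.41, 7.73, 22.2, 9.29 and 10.6 in C2 to C6. The region on chromosome 19 from 102019 to 105642 had 12.8, 13.4 and 13.3 in the controls and 12.7, 13.5, 22.5, 16.9 and 14.0 in CLBL-1, and was about as strong in both lines. That on chromosome 5 from 61731467 to 61732741 had 22.3, 12.3 and 12.9 in the controls and 10.0 to 15.2 in CLBL-1, and that on chromosome 12 from 65556567 to 65559297 had 21.7, 12.9 and 12.3 in the controls and 8.45 to 11.3 in CLBL-1. Of the 12, 6 met the rule also at a −log10 p of at least 10, 8 with the q-value, 9 in lists of 20000 and 9 with the minimum of width. The 4 that met it under every one of these settings were both regions of chromosome 5 named here and those of chromosomes 8 and 19.

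**Figure D4:**
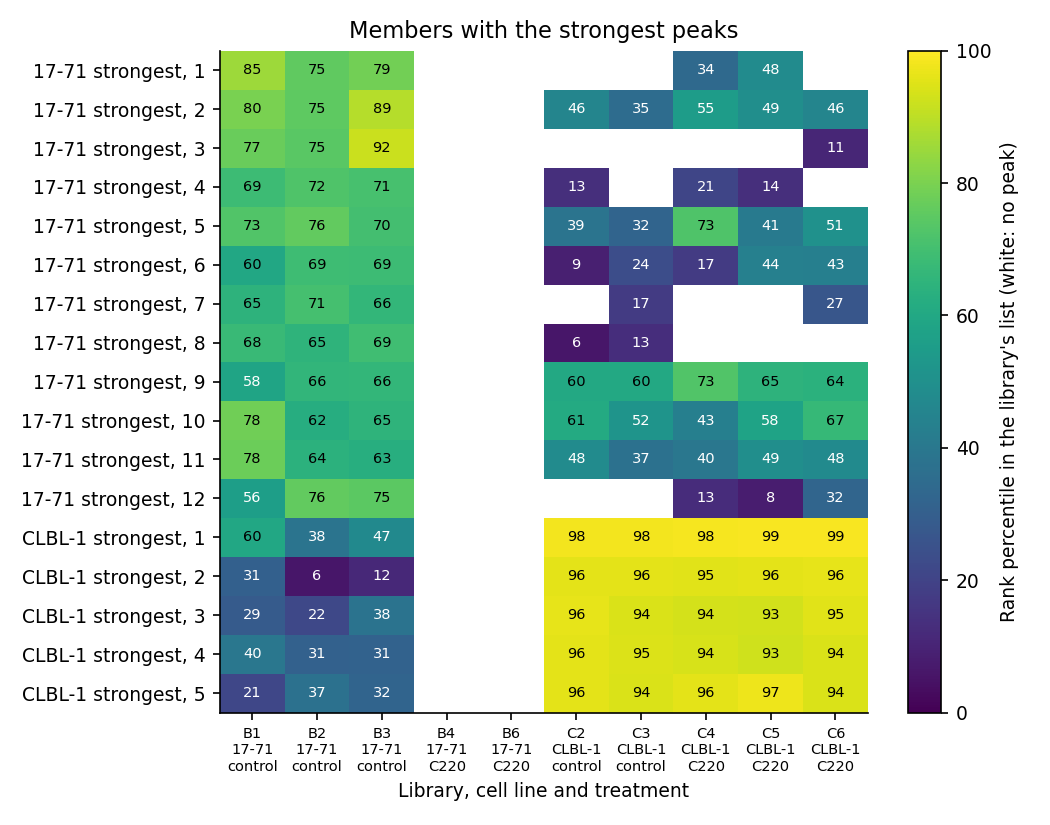
Rank percentile of the peak in each library's own list, where an empty place is a library with no call. The first list holds the 12 shared lost regions with the largest weakest control peak in 17-71 by −log10 p. The second holds the 5 with the largest weakest peak in CLBL-1. In the first list the 17-71 control peaks run from percentile 56.0 to 92.0. In the second the CLBL-1 peaks run from 92.7 to 99.1, beside 17-71 control peaks of 5.89 to 60.1.

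A few shared lost regions were among the strongest peaks of CLBL-1. On chromosome 30 from 29711666 to 29713091, the 17-71 controls were at 13.4, 7.97 and 9.20 on the −log10 p scale, and C2 to C6 at 81.9, 102, 132, 154 and 105, with folds of 6.52 to 7.0 in CLBL-1. On chromosome 1 from 96220247 to 96222999 the controls were at 7.63, 5.30 and 5.65 and the CLBL-1 libraries at 56.4 to 84.8. On chromosome 10 from 16958090 to 16960598 the controls were at 6.60, 7.87 and 7.26 and the CLBL-1 libraries at 50.2 to 105. The other 2 of the 5 strongest in CLBL-1, on chromosome 18 from 46465817 to 46468797 and on chromosome 34 from 12025597 to 12026990, had CLBL-1 values of 55.3 to 68.2 and of 50.8 to 70.1. All 5 stood between the percentiles 92.7 and 99.1 of the CLBL-1 lists and between 5.89 and 60.1 of the 17-71 controls. They were strong in CLBL-1 and weak or middling in 17-71, and none of the 5 met the rule with a −log10 p of at least 10 or in lists of 20000.

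Gene names were taken from the study's own pairing of regions with genes, of which 1999 entries, ordered by the study's own test, were read. Of the 1440 regions, 63 overlapped such an entry and 15 carried a gene name, 13 of them protein-coding, so the named genes are no random sample of the set and were named after their values were seen. Of the 15 entries, 4 overlapped the start of the gene, 5 lay upstream, 4 inside and 2 downstream. None of the 15 was in the lists of 243 genes set for this work (arginine methylation, B-cell identity, MYC, splicing, cell cycle and other cell types), and 0 PRMT genes were among the entries read. The matching shares over all merged regions were not computed, so none of these counts is read as few or many.

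At a gene's start lay the regions of TCF4, DLA-DOB, MBNL1 and ARPC5. TCF4 encodes an E protein, a transcription factor of B-cell and plasmacytoid dendritic cell development (ENSCAFG00000000140, chromosome 1 from 20059623 to 20063249), and its region had a −log10 p of 9.03, 8.22 and 9.05 in the controls and calls in CLBL-1 only in C4 (5.31) and C5 (5.18). DLA-DOB, the beta chain of the MHC class II protein DO that tunes peptide loading in B cells, had 10.2, 9.47 and 8.29 on chromosome 12 from 2381900 to 2384300, and 5.40, 8.83, 7.31, 10.8 and 6.22 in C2 to C6. The TCF4 region was thus near the limit of calling in CLBL-1, while the values of DLA-DOB overlapped between the lines. MBNL1, a regulator of alternative splicing, had 8.27, 12.4 and 9.43 on chromosome 23 from 46736580 to 46737996 and 16.8 to 21.3 in all CLBL-1 libraries. ARPC5, a subunit of the actin-branching Arp2/3 complex, had 8.03, 14.2 and 14.6 on chromosome 7 from 16982717 to 16987133 and 8.34 to 18.4 in CLBL-1.

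Upstream of their gene lay the regions of JADE2, USP12, TRPM7, STK17B and WIPI2. USP12, a deubiquitinase, had 8.84, 5.73 and 9.33 in the controls on chromosome 25 from 12387501 to 12388683 and 12.4, 19.0, 37.0, 38.1 and 21.8 in C2 to C6. STK17B, a kinase of the death-associated family that is abundant in lymphocytes, had 7.68, 5.68 and 5.08 on chromosome 37 from 5823423 to 5826790 and 10.5 to 15.9 in CLBL-1. Both regions had a higher −log10 p in every CLBL-1 library than in any 17-71 control, on a scale that was not set equal between libraries. JADE2, a partner of the HBO1 histone acetyltransferase, had 12.5, 6.56 and 5.54 on chromosome 11 from 22645569 to 22650931 and 12.1 to 19.5 in CLBL-1, where 3 of the 5 libraries reached the bases shared by the controls. WIPI2, which acts early in autophagy, had 18.2, 13.6 and 6.01 on chromosome 6 from 12703547 to 12704190, with calls in C2 (7.28) and C4 (5.16). TRPM7, an ion channel with a kinase domain, had 12.6, 8.19 and 5.87 on chromosome 30 from 16583590 to 16584394 and 5.25 to 8.69 in 4 CLBL-1 libraries.

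Inside genes lay the regions of HNRNPU, UBE2H, SNX8 and RGS18. HNRNPU encodes a nuclear RNA-binding and scaffold protein, and its region on chromosome 7 from 35839178 to 35841667 had 6.33, 5.09 and 5.00 in the controls and 16.5, 15, 26.2, 44.1 and 16.0 in C2 to C6. It was at the limit in 17-71 and well above it in every CLBL-1 library. UBE2H, a ubiquitin-conjugating enzyme, had 14.4, 8.04 and 11.4 on chromosome 14 from 6915500 to 6916846 and 5.63 to 7.34 in 4 CLBL-1 libraries. SNX8, a sorting nexin of endosomes, and RGS18, a regulator of G-protein signalling in blood cells, were called in 2 CLBL-1 libraries each, at 5.12 to 5.86. Downstream of the microRNA gene MIR21, the region on chromosome 9 from 34342260 to 34344885 had 6.77, 6.51 and 6.90 in the controls and a call in C5 alone, at 5.08. The entry RF00001, a ribosomal RNA family, had a region on chromosome 7 from 78243805 to 78245417 with 9.73, 10.6 and 12.2 in the controls and calls in C5 and C6.

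**Figure D5:**
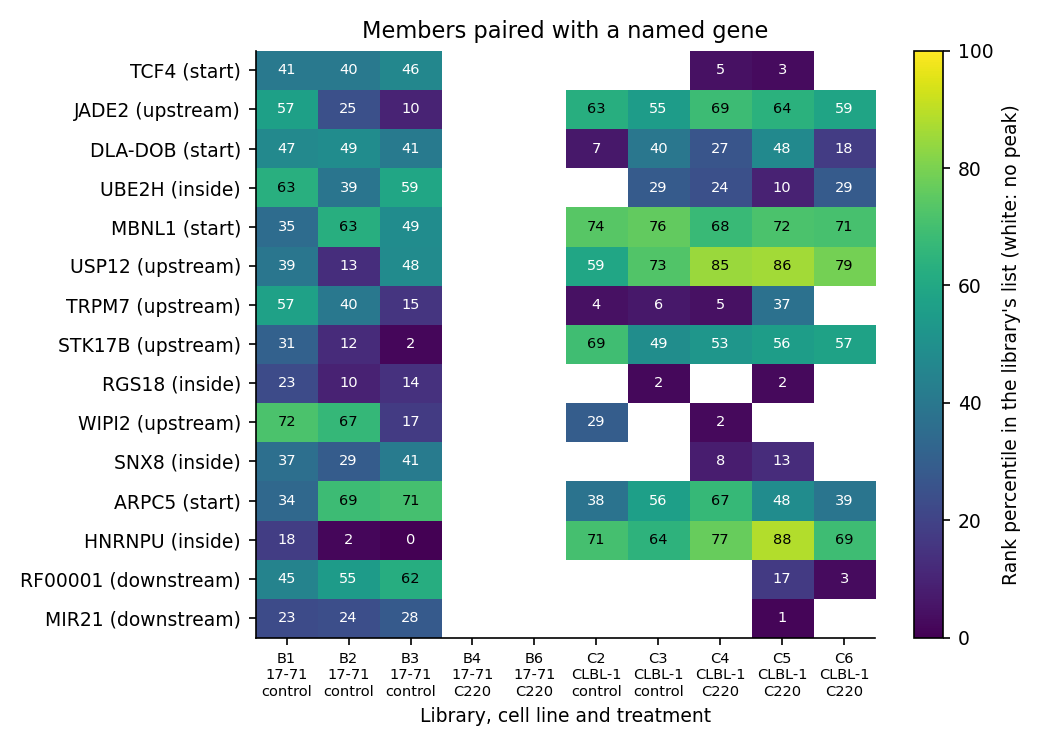
Rank percentile (0 weakest, 100 strongest peak of a library's own list) of the 15 shared lost regions that carry a gene name, by library, with empty cells where a library had no call. B4 and B6 are empty by the rule, and USP12, HNRNPU, MBNL1, STK17B and JADE2 are the regions called at higher −log10 p in CLBL-1 than in most 17-71 controls.

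None of the 15 met the rule with a −log10 p of at least 10 or in lists of 20000 peaks. With the q-value, 4 did (DLA-DOB, UBE2H, MBNL1 and ARPC5), and with the minimum of width 13 did. The region that the study's entries pair with MYC, the transcription factor gene that the study followed, was not among the shared lost regions. It overlaps the end of the gene, on chromosome 13 from 25204781 to 25208119. It had 27.7, 21.5 and 25.2 in the controls and 8.10 in B6, with no call in B4 or in any CLBL-1 library. Other regions around MYC are not covered by these values.

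The shared lost regions lay on all 39 chromosomes, between 13 and 81 on each. As a share of the regions called in all 3 controls and in CLBL-1, the highest was 18.4% on chromosome 29 (25 of 136, 95% Wilson interval 12.8 to 25.7%) and the lowest 6.30% on chromosome 27 (29 of 460, 4.43 to 8.91%). On chromosome 29 the median weakest control peak of those regions was 8.64, the lowest of any chromosome, and on chromosome 27 it was 14.7, the highest. The chromosomes were ordered after their values were seen and no test was made. The part of peak strength in the share per chromosome was not tested.

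The median distance from a shared lost region to the nearest other one was 297 kb, and 234 (16.2%) had one within 50 kb. Of the lost regions absent in CLBL-1, 10.7% had a shared lost region within 50 kb (median distance 404 kb), and of the kept regions 12.4% (346 kb). The nearest kept region was at a median of 36.8 kb, and 58.6% of the shared lost regions had one within 50 kb. Lost regions absent in CLBL-1 lay a median of 48.0 kb from a kept region, and kept regions 31.3 kb from each other. There were 8 runs of 3 in which each step was under 50 kb. One, on chromosome 7 from 16960284 to 16987133, ended at the ARPC5 start. Its first region, from 16960284 to 16962350, had 9.50, 8.86 and 5.22 in the controls and 9.50 to 17.2 in CLBL-1, and its second, from 16971695 to 16972906, had 8.73, 7.53 and 11.6 in the controls and calls in C2 (6.0) and C5 (7.28). The shortest run, on chromosome 15 from 22586281 to 22604196, held no kept region.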

How the data were processed

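The authors aligned ATAC-seq reads to CanFam3.1 with Bowtie2 2.2.4, and MACS2 then gave a list of broad peaks for every library on its own. CASAVA and deepTools are also named in the submitters' processing notes. Not given in the sources used here are the MACS2 version, the duplicate and mitochondrial filters and any control sample. Each deposited list gives a fold enrichment (a ratio to the surrounding background), a −log10 p-value and a −log10 q-value, with no scaling between libraries. The score that the authors' lists also hold, a whole number, played no part here.

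Here peaks that touched or overlapped were merged over the 10 libraries (gap of 0 bp), and a library counted as carrying a region from 1 bp of overlap. A region with several peaks of a library took the strongest. Peaks were ranked by −log10 p within their own list. Coordinates are 1-based. Means over libraries were compared by two-sided exact permutation tests with a threshold of 0.05, and shares have Wilson intervals at 95%, which cover counting error only. Peak lists carry no read depth. The named regions were the 12 strongest by the weakest control peak of 17-71, the 5 strongest by the weakest of 5 CLBL-1 peaks, the 3 just inside the rule, and MYC. The regions, lists and rules were chosen with earlier results of these data known. Gene names came from the study's annotation of regions, names and relation only, and 14 of 15 names lie on the same chromosome number in the RefSeq table of UU_Cfam_GSD_1.0.

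The alternatives were a stricter −log10 p of 10, a −log10 q of 5, lists of 20000 peaks, a minimum of 50% of the region's median peak width, ranking by fold, other merging and leaving out each library. The study's fit used read counts, which were not analysed here. CanFam3.1 sequence and annotation were not used here. Sequences, motifs, distances to gene starts and markers of the labelled tissue and cell type were therefore not analysed. The coding of the selection was checked on 20000 simulated regions, where 400 of 400 planted members were recovered with 0 false ones. Those regions lay apart from each other, and unplanted ones that met the rule were given a C220 call. The check therefore gives no rate of false members in the real lists. The merging of the real peaks matched bedtools 2.31.1. Calculations ran in Python 3.11.15 (scipy 1.17.1, pandas 2.3.3, numpy 2.4.6), with plots by matplotlib 3.10.9.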

Additional observations from a re-analysis of the deposited data

How the results depend on the processing

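The number of shared lost regions (1440) was 277 in lists of 20000 peaks, and lay between 1378 and 3593 when 1 library at a time was left out, with 3593 without B6. Lost regions called in CLBL-1 made up 42.6% of all lost regions, 38.5% at a −log10 p of at least 10, 38.4% with a −log10 q of at least 5 and 40.1% in lists of 20000, and from 39.1 to 44.4% leaving out a library. The CLBL-1 difference in regions called (104.8) was -2.5 in lists of 20000 (exact permutation p = 0.8) and 72.5 to 197 leaving out a library. As a share of a library's regions (0.0563 points), it was -0.0579 at a −log10 p of at least 10, -0.116 with the q-value, -0.00966 in lists of 20000 and -0.0148 with a minimum of peak width, and from -0.157 to 0.221 leaving out a library. The rank gap to kept regions in CLBL-1 (-35.0 points) stayed negative under every alternative run, from -36.6 to -18.4, and from -36.5 to -28.3 leaving out a library. The rank difference between lost regions called and not called in CLBL-1 (2.56 points) was -0.229 in lists of 20000, 4.58 with a minimum of peak width and 2.48 to 4.17 leaving out a library. The exact permutation tests used here could not reach 0.05 with so few libraries, so they show no call as lost or won, and the causes of these changes were not tested. No paired analysis was possible because control and C220 libraries of a line share fewer than 2 replicate numbers. The distance to gene starts was not run, as a CanFam3.1 annotation was not used here. An absent call sets no level, since the lists hold no read depth.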
